A study of Drosophila melanogaster with 3 samples.

Results

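The Beat, Side and related immunoglobulin (Ig) adhesion genes are 34 genes that encode surface and secreted proteins of axon guidance and cell contact. They were chosen by name, with earlier results of these data known, from 17684 annotated genes, those of the 6 chromosomes with called peaks. They comprise 14 beat genes, 3 side genes, 13 genes for other Ig adhesion proteins, and 4 genes for receptor tyrosine phosphatases and the pseudokinase Otk. CG34114 is side-VI and CG12484 is side-VIII. Their values are the scores of genomic peaks of the homeodomain transcription factor Bsh in L4 lamina neurons of the fly visual system, where Bsh is known as a factor that sets neuronal identity and connectivity.

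Beat proteins and Side proteins recognise each other on apposed cells. The founding pair was found in the embryo, where motor axons release Beat-Ia and read Side on the cells along their path, so that they leave the axon bundle and reach muscle. The Ig adhesion proteins bind the same or another Ig protein on a neighbouring membrane, and the receptor phosphatases pass contact signals to the growth cone by removing phosphate groups from cytoplasmic proteins.

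Binding was mapped by Targeted DamID, in which Bsh is fused to the bacterial DNA methylase Dam and marks the DNA near its binding sites. The data form 1 group of 3 replicates (Bsh:Dam in L4 neurons, 46–76 hr after puparium formation, APF), and each replicate was set against a Dam-only profile made in the same way. The crosses carried tubP-GAL80[ts], 31C06-Gal4 and UAS-myristoylated-tdTomato, and warming, which inactivates GAL80[ts], released expression of Bsh:Dam (Bsh-TaDa line) or of Dam alone (FlyORF-TaDa line) in the cells where 31C06-Gal4 is active. Each group pooled laminae dissected from many pupae, so the cells represented are those of the 31C06-Gal4 pattern within the lamina, and the peak lists hold no expression values against which the L4 label could be checked with marker genes. There is no second condition, and the differences below are between genes within these 3 profiles, with no test.

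The peak lists hold 2834, 2838 and 2891 peaks in replicates 1, 2 and 3, with median scores of 2.98, 3.08 and 2.77. The score is that of the peak caller and derives from the log2 ratio of the fusion over Dam alone, but its formula is not known here. It is therefore used to order peaks and not read as a fold enrichment. No read counts come with the lists, so the depth behind a score is unknown, and a missing peak means that none was called. A gene was counted as bound when its highest listed score was above 2.5, the threshold of the study's methods, in all 3 replicates. By this rule 9.75% of all annotated genes were bound. A peak of any score was listed in all 3 replicates for 13.2% of genes and in at least 1 replicate for 18.0%.

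Of the 34 genes, 14 were bound under the symbols as written (41.2%), against 9.75% of all annotated genes. One further gene, fipi, is listed under its older symbol CG15630, and with it the count was 15 (44.1%). The share of all genes was counted with older symbols matched, so the count of 15 is the one made by the same rule. The bound genes were beat-Ia, beat-IIa, beat-IIb, beat-IIIa, beat-IIIb, beat-VI, side, CG34114, CG12484, Fas2, klg, tutl, bdl, fipi and Ptp99A. A further 9 genes had peaks that did not pass in every replicate, and 10 had no peak in any. A score above 3 in all 3 replicates was held by 11 of the genes as written, and also by fipi (3.50, 3.06 and 3.16). With older symbols matched it was held by 6.23% of all genes. Taken one replicate at a time and with fipi included, 20, 19 and 16 of the genes had a score above 2.5 in replicates 1, 2 and 3. The share of all genes was not counted for single replicates. A score above 2.5 in at least 1 replicate was held by 13.6% of all annotated genes.

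**Figure D1:**
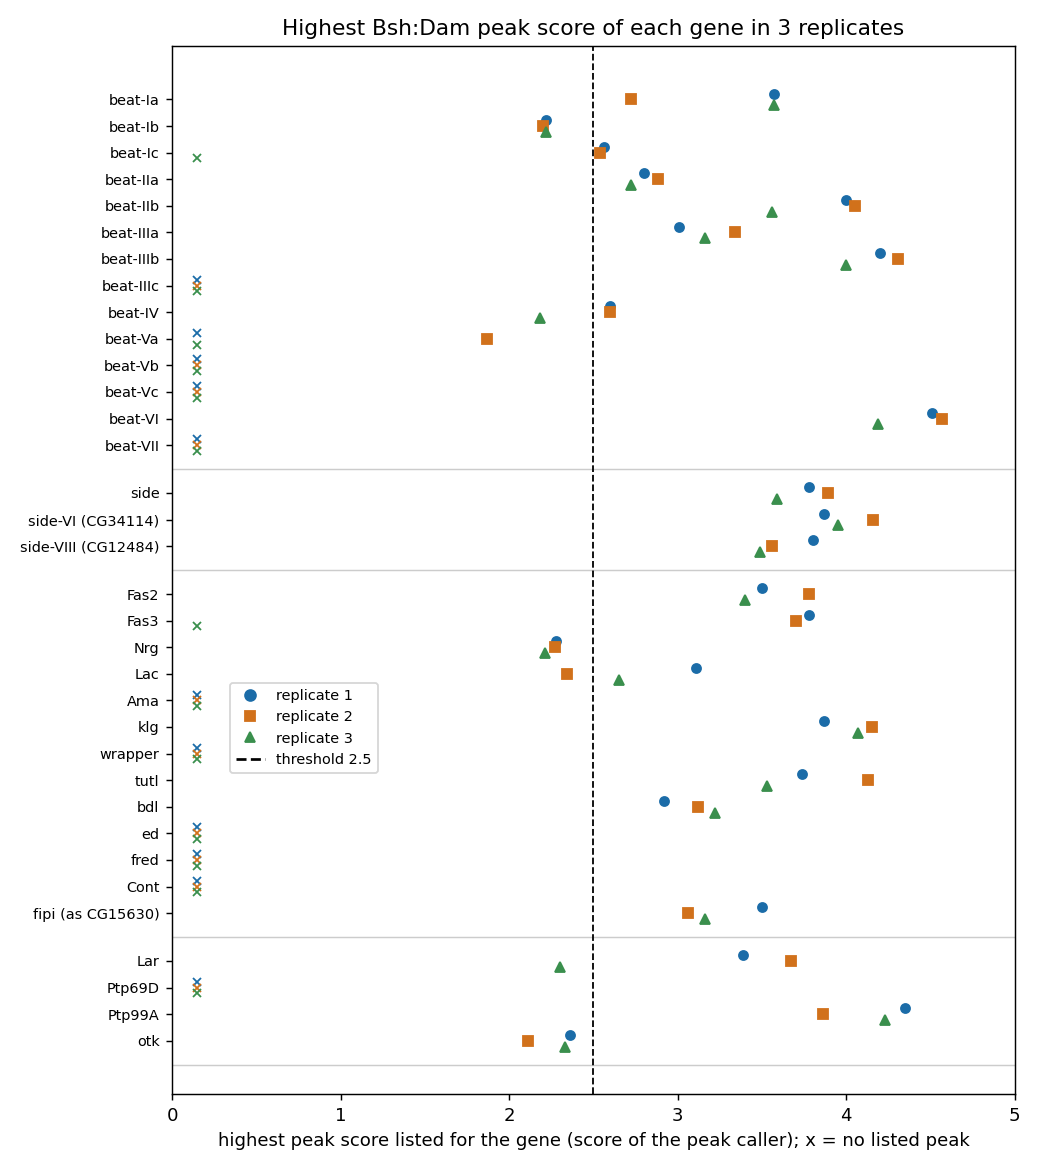
Highest Bsh:Dam peak score listed for each of the 34 genes (horizontal axis, score of the peak caller) in replicates 1, 2 and 3, with crosses at the left where no peak is listed and a dashed line at the threshold of 2.5. beat-VI lies furthest right (4.51, 4.57 and 4.19), the 3 side genes all lie above the threshold, and 10 genes have crosses only.

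The plot of highest scores shows the replicates of a gene within 1 unit of score for all but Lar, and Fas3 and beat-Ic without a peak in replicate 3 only. The genes are long, and long genes were bound more often across the whole annotation. Their median length was 41023.5 bp, against 1710 bp for all annotated genes, and a comparison of the counts has to be read within classes of length. Among genes of 50 kb and over, 59.6% of all 319 were bound, and 8 of the 14 Beat, Side and Ig adhesion genes of that length (57.1%). Between 10 and 50 kb, 32.9% of all 1714 genes were bound, and 6 of the 14 Beat, Side and Ig adhesion genes (42.9%). Between 2 and 10 kb, 9.59% of all 5753 genes were bound, and 1 of 6 here (16.7%), which is bdl. In the longest class the share thus lay near that of all genes of the same length. The number of peaks on a bound gene of 50 kb and over was also similar, with a mean of 3.13 here and 3.29 for all such genes. In the longest class 25.7% of all genes had no peak, and the genes without one here were beat-IIIc, ed and fred.

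**Figure D2:**
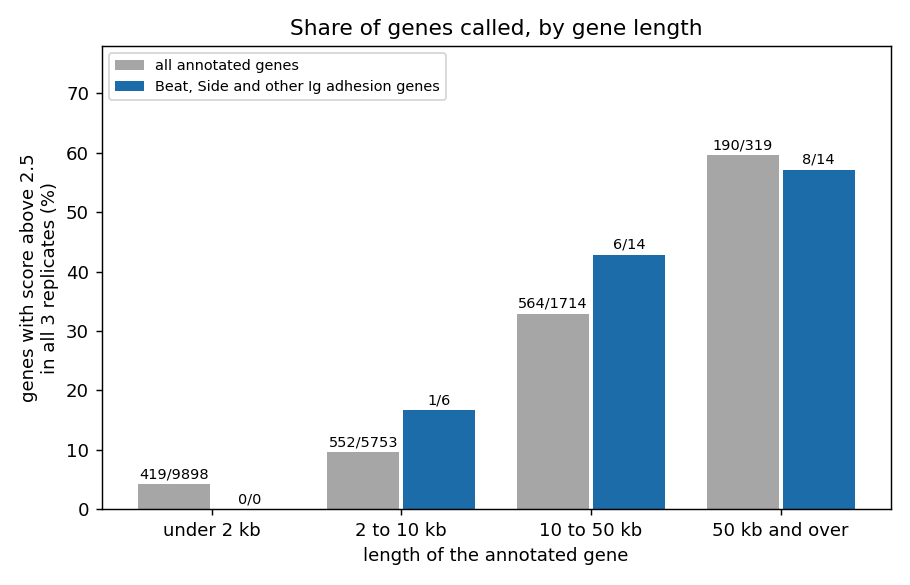
Percentage of genes with a score above 2.5 in all 3 replicates (vertical axis) by length of the annotated gene, for all annotated genes (grey) and for the Beat, Side and other Ig adhesion genes (blue), with the counts over the bars. The grey bars rise from 4.23% to 59.6%, and the blue bars reach 42.9% at 10 to 50 kb and 57.1% at 50 kb and over.

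The Beat genes encode Ig-domain proteins, some secreted and some held at the membrane, and 6 of 14 were bound (42.9%), against 9.75% of all genes. Their median length was 36933 bp, and 32.9% of all genes of 10 to 50 kb were bound. The bound Beat genes were beat-Ia, both beat-II genes, beat-IIIa, beat-IIIb and beat-VI. beat-VI had the highest mean score of all 34 genes, with highest scores of 4.51, 4.57 and 4.19 (mean 4.42 ± 0.20, SD, n = 3). Ranked among the listed genes of each replicate, it stood at or above 97.9%, 98.8% and 95.0% of them. The peak behind it lay inside the 56.6 kb gene at 3R:28457661-28458940 with the same borders in all 3 replicates. A separate peak over a border of beat-VI scored 3.97, 4.04 and 3.57. A peak between them, at 3R:28446516-28448427, scored 3.70 and 3.44 in replicates 1 and 2 and was not called in replicate 3.

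beat-IIIb carried 1 peak, with scores of 4.20, 4.31 and 4.00 (mean 4.17 ± 0.16), inside a 20.9 kb gene. Within the same group beat-IIIa also carried 1 peak, at 3.01, 3.34 and 3.16 (mean 3.17 ± 0.17), so the ranges of these paralogs did not overlap. The beat-IIIa peak lies within 1 kb of CG34106 as well. beat-IIIc, the longest Beat gene at 73.1 kb, had no peak, and the nearest peak lay 49.1 kb away in all 3 replicates.

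The paired beat-II genes differed in the same way. beat-IIb reached 4.00, 4.05 and 3.56 (mean 3.87 ± 0.27) at a peak that crosses its border at 3R:17264966-17266683 and is also within 1 kb of CG44257. beat-IIa had 3 peaks in each replicate, of which the highest scored 2.80, 2.88 and 2.72 (mean 2.80 ± 0.08), the lowest mean of the bound genes. All 3 beat-IIa peaks were found again in every replicate, at mean scores of 2.80, 2.58 and 2.63.

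beat-Ia, for the secreted partner of Side in the embryo, had 1 peak, which scored 3.57, 2.72 and 3.57 (mean 3.29 ± 0.49). Replicate 2 was the low one, and there the called peak spanned 1376 bp, against 768 bp in replicates 1 and 3. The other Beat-I genes had no value above that of replicate 2. beat-Ib scored 2.22, 2.20 and 2.22, below the threshold in every replicate. beat-Ic scored 2.56 and 2.54 in replicates 1 and 2 and had no peak in replicate 3, where the nearest peak was 8.67 kb away.

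The remaining Beat genes were weak or empty. beat-IV scored 2.60, 2.60 and 2.18, and the equal values of replicates 1 and 2 came from neighbouring peaks that share a border, not from the same interval. beat-Va had 1 peak of 1.87 in replicate 2 only. No peak was called for beat-Vb, beat-Vc or beat-VII in any replicate. For beat-VII the nearest one lay 22.2 kb away in each.

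**Figure D3:**
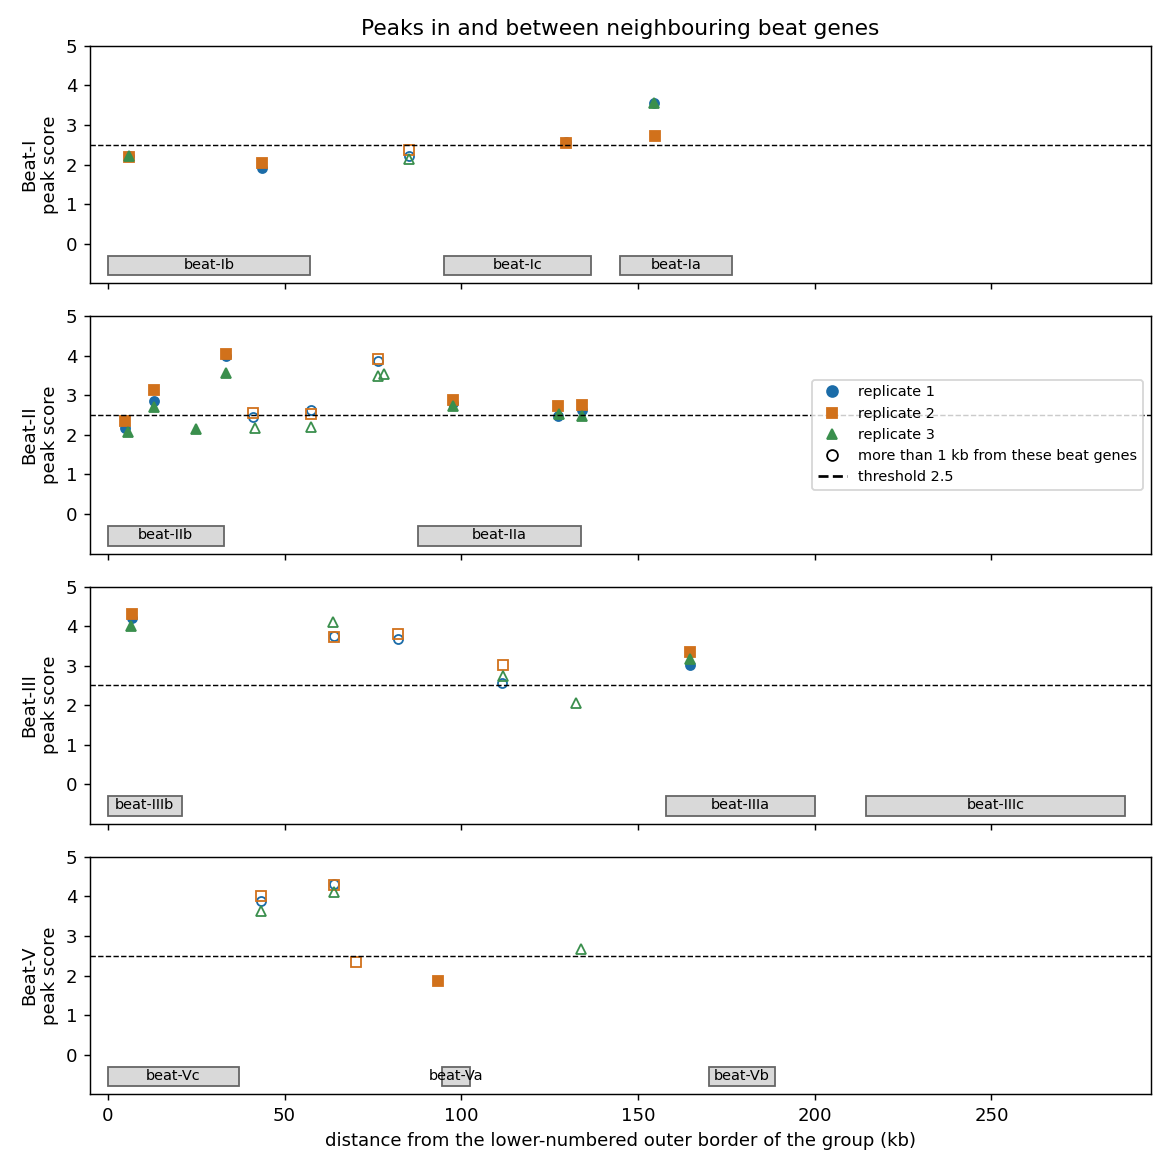
Peaks in and between neighbouring beat genes, with the distance from the lower-numbered outer border of each group (horizontal axis, kb) against peak score, genes drawn as boxes, and open symbols for peaks more than 1 kb from the beat genes shown. The Beat-III and Beat-V panels hold open symbols above 3.5 in all 3 replicates, while beat-IIIc, beat-Vb and beat-Vc hold no peak.

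The beat paralogs of types I, II, III and V sit in 4 groups of neighbouring genes, and each group also held peaks that the 1 kb rule assigns to none of its beat genes. The Beat-V group spans 188.8 kb (beat-Vc, beat-Va, beat-Vb). A peak at 3R:12788698-12789774 scored 3.89, 4.01 and 3.64 there, 5.48 kb from beat-Vc, with no annotated gene within 1 kb. A second peak at 3R:12809404-12810522 scored 4.31, 4.28 and 4.10 and lies within 1 kb of CG31345. The scores of both were above those of any peak on the Beat-V genes themselves, the only one of which was the 1.87 of beat-Va.

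In the Beat-III group of 287.6 kb (beat-IIIb, beat-IIIa, beat-IIIc), 2 of 5 peaks in each replicate lay on or within 1 kb of a beat gene. A peak at 2L:17036176-17037932 scored 3.74, 3.73 and 4.10, at 42.2 kb from beat-IIIb and with no gene within 1 kb. It was called over a shorter interval in replicate 3. Another, at 2L:17054689-17055876, scored 3.67 and 3.80 in replicates 1 and 2 and was not called in replicate 3. In the Beat-II group of 133.9 kb, a peak between beat-IIb and beat-IIa that begins at 17307899 on 3R scored 3.86, 3.93 and 3.49, higher than any peak on beat-IIa and with no gene within 1 kb. The Beat-I group of 176.6 kb held only 1 peak away from its beat genes in each replicate, at 2.22, 2.38 and 2.15, near a long noncoding RNA gene. With a window of 10 kb in place of 1 kb, a choice made after these values were seen, beat-Vc was bound, and so were 28.2% of all annotated genes.

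The Side genes encode Ig-domain membrane proteins that Beat proteins bind, and all 3 chosen ones were bound. side, the founding member and the attractant for embryonic motor axons, had 1 peak at 3.78, 3.89 and 3.59 (mean 3.75 ± 0.15). The peak crosses the border of the 62.4 kb gene at 3R:27436483-27438194 and lies within 1 kb of CG44290. CG34114 (side-VI) scored 3.87, 4.16 and 3.95 (mean 3.99 ± 0.15). Its highest peak, ending at 10972318 on 3R, lies just outside the gene and within 1 kb of it, and the highest peak that overlaps the gene had a mean score of 3.13. CG12484 (side-VIII) scored 3.80, 3.56 and 3.49 (mean 3.62 ± 0.16) at a peak over its border, 2R:20423126-20424352, with the same borders in all 3 replicates. It had 3 further peaks inside the gene in each replicate, 1 of which scored 3.42, 3.47 and 2.55.

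The replicate ranges of side and CG12484 overlapped, as did those of side and CG34114, while CG34114 lay above CG12484 in every replicate and their ranges did not overlap. The 5 other Side genes were looked for under their older symbols too. side-III had scores of 4.33, 3.89 and 3.80 with 8, 8 and 6 peaks along 96.7 kb. side-V scored 2.56, 3.62 and 3.40, with replicate 1 low, and side-II scored 2.84, 3.02 and 2.67. No peak was called for side-IV or side-VII, which are shorter genes of 13.6 and 6.0 kb. In all, 6 of 8 Side genes were bound (75%), and the 2 that were not are the shortest of the 8. Across the annotation 9.75% of all genes and 59.6% of those of 50 kb and over were bound, and 5 of the 8 Side genes are of that length.

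**Figure D4:**
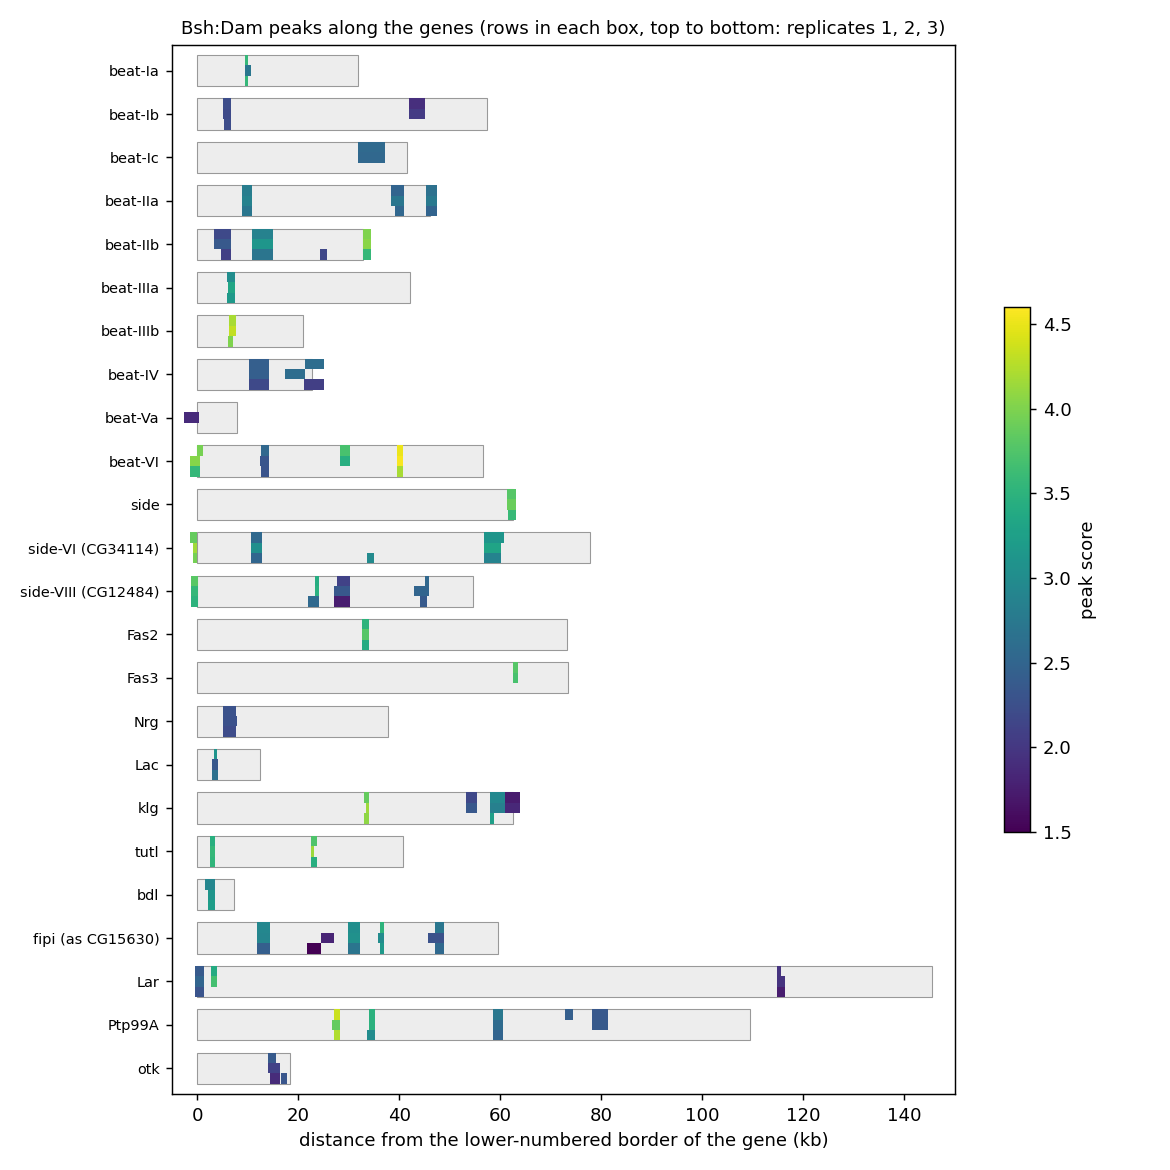
Bsh:Dam peaks along the genes that have any, drawn by distance from the lower-numbered border of the gene (horizontal axis, kb), with replicates 1, 2 and 3 from top to bottom within each box and colour for the peak score. Most peaks recur at the same place in all 3 replicates, and 11 genes have a single place with a peak.

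Among the Ig adhesion genes 4 of 13 were bound as written (30.8%) and 5 of 13 with fipi (38.5%), against 9.75% of all genes. Their median length was 40634 bp, but most lie outside the class of 10 to 50 kb, where 32.9% of all genes were bound. Fas2, Fas3, klg, ed, fred and fipi are of 50 kb and over (59.6% of all genes bound). Ama, wrapper, bdl and Cont are of 2 to 10 kb (9.59%). klg (klingon), a homophilic adhesion molecule first described in photoreceptor development, led with 3.87, 4.15 and 4.07 (mean 4.03 ± 0.14). A second klg peak scored 2.95, 2.84 and 3.24, and was called over 783 bp in replicate 3 and 2875 bp in the other replicates. The 2 lower klg peaks of replicates 1 and 2 were absent from replicate 3.

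tutl (turtle) and bdl (borderless) encode related Ig proteins that both have a role in the tiling of R7 photoreceptor axons, and they are neighbours with no gene between them. tutl had 2 peaks in each replicate, with highest scores of 3.74, 4.13 and 3.53 (mean 3.80 ± 0.30). These came from different peaks, the one starting at 4305661 on 2L in replicates 1 and 2 and the one starting at 4285569 in replicate 3. In replicate 3 the former scored 3.44. bdl had a peak of its own at 2L:4326091-4328010, with scores of 2.92, 3.12 and 3.22 (mean 3.09 ± 0.15). The ranges of the neighbours did not overlap, and no peak was shared by both. At 7.28 kb bdl was the only one of the 15 bound genes under 10 kb.

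Fas2, the fly relative of NCAM and a homophilic adhesion protein of axon bundles, had 1 peak, at X:4165416-4166842, in the same place in all 3 replicates. Its scores were 3.50, 3.78 and 3.40 (mean 3.56 ± 0.20), and its FDR lay between 2.0e-03 and 3.4e-03. Fas3, another homophilic adhesion protein of axons and epithelia, resembled it in replicates 1 and 2 with 3.78 and 3.70. In replicate 3 no Fas3 peak was called and the nearest lay 69.3 kb away, and the FDRs of the called ones were 4.9e-03 and 6.2e-03.

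fipi, named for its role in the timing of courtship song, had 4, 5 and 5 peaks along 59.5 kb. Its highest scores of 3.50, 3.06 and 3.16 (mean 3.24 ± 0.23) came from different peaks, since replicate 2 had its highest at 2L:4764387-4766867 and the others at 2L:4770746-4771634. Lac (Lachesin), a septate junction protein held at the membrane by a lipid anchor, scored 3.11, 2.34 and 2.65, with replicate 2 below the threshold. The Lac peak was called over 639 bp in replicate 1 and over 1106 bp in the others. Nrg (Neuroglian), the fly L1-type protein that links to ankyrin, scored 2.28, 2.27 and 2.21 at a peak also near PIP82, below the threshold in every replicate.

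No peak was called within 1 kb of Ama, wrapper, ed, fred or Cont. Ama (Amalgam) is a secreted Ig protein, wrapper is a surface protein of midline glia, Cont (Contactin) belongs to septate junctions, and ed and fred are the homophilic Echinoid pair. ed and fred are long, at 84.4 and 88.8 kb, and are neighbours, and the whole stretch of 212.8 kb that they bound held no peak in any replicate. It also holds 7 other protein-coding genes. By contrast Ama, wrapper and Cont are 2.67, 3.04 and 5.71 kb long, a class in which 80.6% of all genes had no peak.

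Of the receptor phosphatases and Otk, Ptp99A alone was bound (25.0% of 4), against 9.75% of all genes and 59.6% of those of 50 kb and over, the length class of Lar and Ptp99A. Ptp99A, which acts in embryonic motor axon guidance, scored 4.35, 3.86 and 4.23 (mean 4.15 ± 0.26). It had 5, 4 and 3 peaks, all inside the 109.5 kb gene, and its second peak scored 3.48, 3.48 and 3.0. Lar, needed for photoreceptor axon targeting, scored 3.39, 3.67 and 2.30. The higher Lar values came from a peak at 2L:19589310-19590452 that was not called in replicate 3, where a weaker peak nearby (2.37, 2.5 and 2.30) was the highest. otk, the fly relative of the pseudokinase PTK7, scored 2.36, 2.11 and 2.33, below the threshold throughout. The replicate 3 value of otk came from a separate peak. Ptp69D, a partner of Lar in axon targeting, is 6.62 kb long and had no peak, with the nearest 56.8 kb away in replicates 1 and 3 and 57.5 kb away in replicate 2.

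Of 21 related genes outside the set, 8 were bound as written (38.1%) and 11 with older symbols (52.4%), against 9.75% of all genes. By length, 10 of the 21 are of 10 to 50 kb, where 32.9% of all genes were bound, and 5 are of 50 kb and over, where 59.6% were. Of the phosphatases Ptp10D scored 3.40, 4.26 and 4.17, while Ptp4E, Ptp36E and Ptp52F had no peak. The cytoplasmic partners of these receptors relay their signals to the cytoskeleton. trio, which acts downstream of Lar, scored 4.31, 4.52 and 4.11. ena, an actin regulator and substrate of Abl, scored 4.14, 4.22 and 4.04, and the kinase gene Abl scored 3.72, 3.72 and 3.75. The scaffold gene dlg1 (mean 3.38), the adaptor gene dock (mean 3.15), the neurexin-like Nrx-IV (mean 2.97) and the proteoglycan gene Sdc (mean 2.74), a ligand of Lar, were bound too. dlp, for another Lar ligand, and sas and otk2 had no peak. Ank2, for an ankyrin, had a peak of 3.27 in replicate 1 only, and Liprin-alpha, which binds Lar inside the cell, scored 2.42, 2.65 and 2.32.

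Ranked by mean highest score, the bound genes ran from beat-VI through beat-IIIb, Ptp99A, klg, CG34114, beat-IIb, tutl, side, CG12484, Fas2, beat-Ia, fipi, beat-IIIa and bdl to beat-IIa. The replicate ranges overlapped for 13 of the 14 neighbouring pairs, the exception being bdl and beat-IIa. Overlap of ranges ignores that scores are paired within a replicate, so it does not show that neighbours are alike. Among the pairs with overlapping ranges, beat-VI alone lay above its neighbour, beat-IIIb, in every replicate. The median of these means was 3.75, against 3.46 over all bound genes of the annotation, and 10 of the 15 lay above the latter. The spread between replicates was alike, with a median SD of 0.17 for both. The 2 medians were not compared within classes of length, and a highest score is taken over more peaks in longer genes. Bound genes of the annotation averaged 3.29 peaks at 50 kb and over, and 1.07 under 2 kb. At least 3 peaks in every replicate were present on 7 of the 15, whose median length was 54614 bp, and on 11.7% of all bound genes of any length.

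Merged over replicates, the peaks on or within 1 kb of these genes fell into 56 places on 24 genes. Of these places 41 had a peak in all 3 replicates, 8 in 2 and 7 in 1. The borders were identical in all 3 replicates at 11 places, and the score was above 2.5 in all 3 at 24. Across the 41 places, scores of replicates 1 and 2 had a Pearson's r of 0.915 (Spearman's rho 0.892), those of replicates 1 and 3 of 0.941 (rho 0.942) and those of replicates 2 and 3 of 0.891 (rho 0.873). These places share genes and libraries and were chosen for having a peak in each replicate, so the coefficients are descriptive. The score was lowest in replicate 3 at 28 of the 41 places, with means of 3.08, 3.09 and 2.90, in the direction of the lower median of that replicate over all peaks.

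The share of peaks found again in both other replicates was 82.0%, 80.4% and 91.1% in replicates 1, 2 and 3 (84.5% ± 5.78), and 83.6%, 83.4% and 81.9% over all peaks (82.9% ± 0.93). The number found again near these genes was 41 in each replicate, of 50, 51 and 45 peaks. The SD of 5.78 thus follows the list sizes alone and is no yardstick for the difference between these means. Most peaks lay inside the genes: the midpoint was within the gene for 90.0%, 88.2% and 86.7% of them, against 91.0%, 91.1% and 90.6% for peaks of all protein-coding genes of 10 kb and over. Within 1 kb of a border lay 18.0%, 15.7% and 17.8%, against 13.0%, 12.7% and 13.0%. Another annotated gene lay within 1 kb of 13 of 50, 12 of 51 and 10 of 45 of these peaks, so their assignment to the Ig gene alone is not settled.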

How the data were processed

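Bsh:Dam profiles of L4 neurons in 3 replicates were analysed. The authors processed the reads with damidseq to log2 ratios of Bsh:Dam over Dam. Peaks were called by find_peaks at a min_quant of 0.9 and an FDR below 0.01, in each replicate and not on pooled ones, and peaks2genes listed the genes up to 1 kb away. The submitters' processing notes also name FastQC 0.11.9. The deposited peak lists and gene lists hold a score for each peak and for each pair of gene and peak, and no read counts, so depth is unknown. The aligner settings behind the lists, the genome build and the Dam library set against each replicate are not given in the sources used here. Nothing says whether the replicates share pupae or days.

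For each gene the highest listed score per replicate was taken, and a gene was called bound when it exceeded 2.5 in all 3. Gene lengths, neighbours and older symbols came from RefSeq (Release 6 plus ISO1 MT). Of the gene lines, 99.9% in each replicate had a peak of equal score within 1 kb of the RefSeq span, and 7.08% to 8.10% did after a shift of the spans by 50 kb. Annotation coordinates are not printed, and peak positions are those of the deposited lists. Strand is not in the annotation used, so gene starts were not told from gene ends. Of the list symbols, 17, 34 and 38 had no match.

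All 34 genes are named, with, of 21 related genes, those bound in all replicates, those with no peak and, chosen after their values were seen, Ank2 and Liprin-alpha. Genes near a shared peak are named only as neighbours. The members and lists were chosen with earlier results of these data known. With 1 group there was no comparison between conditions, and no test was made. The scripts (Python 3.11.15, numpy 2.4.6, scipy 1.17.1, matplotlib 3.10.9) were tested on simulated data. Alternatives were other score and FDR thresholds, fewer replicates, each replicate left out, matching by position and by older symbol, and stricter overlap.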

Additional observations from a re-analysis of the deposited data

How the results depend on the processing

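No paired analysis was possible because the 3 replicates form 1 group. The count of 14 bound genes ran from 11 with a score above 3, which lost beat-Ia, beat-IIa and bdl, to 20 with no threshold. It was 13 with an FDR below 0.001, which lost Fas2 and beat-Ia and gained fipi, and 17 with a window of 10 kb, chosen after seeing the data. Leaving out each replicate gave 14 to 18, and without replicate 3 Fas3, Lar, beat-IV and beat-Ic were bound as well. Of the receptor phosphatases and otk, 3 were bound with no threshold, 2 with the score passing in at least 2 replicates or in at least 1, and 1 to 2 when a replicate was left out (2 without replicate 3, with Lar). The share of all annotated genes, with older symbols matched unlike the count of 14, moved with these settings too. It was 6.23% with a score above 3, 13.2% with no threshold and 28.2% with the 10 kb window. With the score passing in at least 2 replicates or in at least 1 it was 11.8% and 13.6%. Without replicates 1, 2 and 3 in turn it was 9.98%, 9.96% and 11.4%, so all genes gained calls most without replicate 3. The share was not counted for the FDR limit. The share of peaks found in both other replicates was 74.2% with a reciprocal overlap of 50% and 75.0% for scores above 2.5. When a replicate was left out, a peak had to be found in only 1 other replicate, which is easier to meet. That share was 85.8% to 97.0%, the highest without replicate 3, and is not comparable with the share found in both. The share inside the gene was 97.9% by any overlap and 85.6% for scores above 2.5. The median of mean highest scores over the 14 genes, 3.78, was 3.21 with the mean over all lines of a gene. A mean over lines cannot exceed the highest line, so this drop is built into the choice. Several other directions were fixed by the choice as well. No threshold, fewer replicates, a replicate left out or a wider window cannot lower the number of bound genes. A score above 3 cannot raise it. Stricter overlap cannot raise the share found again, and placement by any overlap cannot lower the share inside the gene. The causes of the remaining changes were not tested. A count, or the share of all genes bound, was labelled moved when it changed by more than 1.5-fold. Any other value was so labelled when it changed by at least 1 SD between replicates. By this rule the change from 14 to 20 bound genes was not a move. Of 86 alternatives of the main results 12 moved, and of 70 for single genes 8 did, all to lower values. No other direction was possible for single genes. Leaving out 1 of 3 replicates cannot shift a mean by 1 SD, and the other choices cannot exceed the highest listed score. A peak missing in a list cannot be told from one just short of the caller's limits.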
